A study of Homo sapiens with 6 samples.

Results

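A set of 8 genes of myelin and of the glia that make it, out of 24976 gene symbols, was followed in LN229 cells with GDH1 knocked down and in controls. The genes were MAG, MBP, CNP, PMP22, GJB1, CMTM5, LGI4 and GPR37, taken by symbol from a table of counts per gene. LN229 is an established human glioblastoma cell line. In the 3 knockdown libraries GDH1 had been depleted for 24 h with small interfering RNA (siRNA) delivered by a lipofectamine reagent. The other 3 libraries were controls labelled wild type, whose dishes received an NC mixture made up in the same way. All cells were grown in DMEM with fetal bovine serum and antibiotics, and the series design calls each group biological replicates. Whether 1 siRNA or several were used is left unsaid by the labels, and all 6 come from 1 cell line. GDH1, glutamate dehydrogenase 1, is a mitochondrial enzyme that turns glutamate into 2-oxoglutarate, and its gene is GLUD1. The 8 genes were chosen by function and selected on their values in this same contrast, so their differences and calls are a description and support nothing further.

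Myelin is the stacked membrane that oligodendrocytes wrap around axons in the brain and Schwann cells wrap around axons in peripheral nerves. Compact myelin is held together by proteins such as MBP and PMP22, while CNP, MAG and the gap junction protein GJB1 sit in the looser, cytoplasm-containing parts and at the face toward the axon. SOX10 is a transcription factor of both myelinating cell types, and a secreted protein, LGI4, and receptors such as ERBB3 and GPR37 take part in the signalling between axon and glia. Gliomas can carry transcripts of the oligodendrocyte lineage.

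The libraries held 33355207 to 35619614 counts in the knockdown and 31201100 to 34452724 counts in the controls. GLUD1 had 727, 877 and 933 counts in the knockdown and 3048, 2689 and 2813 in the controls, or 24.6 ± 3.22 counts per 1000000 counts (CPM) against 86.5 ± 1.59 CPM (mean ± SD, n = 3 each). Its log2 fold change was -1.82 (SE 0.10) with an adjusted p of 7.46e-07 in edgeR's quasi-likelihood test. An exact permutation test, two-sided, on log2 CPM had p = 0.1, which is the lowest value possible with 3 against 3 libraries. Of 15638 tested genes, 2048 (13.1%) were lower and 2037 (13.0%) higher in the knockdown at an adjusted p of 0.05, together 26.1%. Without 1 library the number lower ranged from 1053 (without control replicate 1) to 3258 (without knockdown replicate 1), and it was 1069 without control replicate 3 and 1135 without knockdown replicate 2. The number higher was 1163, 1161 and 1190 without control replicate 1, control replicate 3 and knockdown replicate 2.

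Markers of glia were present in LN229 cells unevenly within each cell type's list. Of the astrocyte list, GFAP had 0.542 ± 0.106 CPM in the knockdown and 0.334 ± 0.0783 CPM in controls, and AQP4, the astrocyte water channel, had 0 to 5 counts per library. Other genes of that list were well above these: S100B, also a Schwann cell gene, had 197 ± 10.3 CPM in the knockdown and 430 ± 13.9 CPM in controls, and GJA1 had 56.4 ± 3.87 CPM in the knockdown and 25.2 ± 1.31 CPM in controls. SOX10, chosen after its value was seen like ERBB3 below, had 859 ± 116 CPM in the knockdown and 1120 ± 61.9 CPM in controls. The late oligodendrocyte genes MOG and MOBP had at most 14 and 2 counts in a library, and OPALIN was at 0 in all 6, where 3 counts, the limit a count of 0 allows, are 0.0858 to 0.0895 CPM in the knockdown and 0.0869 to 0.0954 CPM in controls (counting error only). MOG, MOBP and OPALIN were thus too low to test.

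Stretches of DNA before the start of MAG, LGI4 and GJB1, the 3 genes with the lowest fold changes, are given first, so that the letters of promoters whose genes moved together can be compared. Each is the 250 bases before the RefSeq start on GRCh38.p14, 5′ to 3′ on the gene's strand, and capitals mark any match to a SOX core (ACAATG or ACAAAG), an EGR core (GTGGGCG), an E-box (CACGTG) or a CRE core (TGACGT) on either strand. The windows lie at chr19:35291911-35292160 on the plus strand for MAG, chr19:35135060-35135309 on the minus strand for LGI4 and chrX:71214989-71215238 on the plus strand for GJB1.
MAG: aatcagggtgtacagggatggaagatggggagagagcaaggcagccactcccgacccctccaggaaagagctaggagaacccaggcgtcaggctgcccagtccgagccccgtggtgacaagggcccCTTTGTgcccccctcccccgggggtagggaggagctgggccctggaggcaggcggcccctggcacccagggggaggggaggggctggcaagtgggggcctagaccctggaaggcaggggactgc
LGI4: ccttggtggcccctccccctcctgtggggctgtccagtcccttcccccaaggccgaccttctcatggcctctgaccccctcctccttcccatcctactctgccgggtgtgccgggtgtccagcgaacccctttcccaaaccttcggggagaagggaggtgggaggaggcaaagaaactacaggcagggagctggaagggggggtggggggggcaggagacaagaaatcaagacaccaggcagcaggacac
GJB1: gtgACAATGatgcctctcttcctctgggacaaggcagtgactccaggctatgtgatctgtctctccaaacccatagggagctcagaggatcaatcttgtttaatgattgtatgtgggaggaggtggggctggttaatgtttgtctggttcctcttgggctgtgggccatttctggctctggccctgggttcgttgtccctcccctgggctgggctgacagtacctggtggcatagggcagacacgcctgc
The MAG window held 1 SOX core match, CTTTGT, the reverse complement of ACAAAG, 124 bases before the start. The GJB1 window held 1, ACAATG, 247 bases before the start. LGI4 had none of the 5 motifs in these letters. Over the 11 windows from 250 bases before to 50 after a start that RefSeq gives for 7 of the 8 genes, ACAATG was in 3 (of CNP, GJB1 and MBP) and ACAAAG in 2 (of MAG and PMP22), against 10.8% and 16.1% of all 35116 windows. The other 3 motifs were in none of the 11, and in 9.52% (EGR), 7.26% (E-box) and 7.98% (CRE) of all windows. GC content over the 250 bases was 69.2% for MAG, 64.4% for LGI4 and 55.2% for GJB1, beside a median of 58.0% over all windows.

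Of the 8 genes, 7 were lower in the knockdown at the adjusted p of 0.05, beside 13.1% of all tested genes, and PMP22 did not pass. Nothing is read from that count, since the contrast was used to choose the genes. MAG, LGI4, GJB1 and CMTM5 were more than 2-fold lower, MBP and GPR37 were at 53.8% and 54.8% of the control level, and CNP was lower by a small margin. In all 8 the 3 knockdown libraries lay on 1 side of the 3 controls, beside 42.0% of all tested genes. The median log2 fold change was -1.16 over the 8 genes and 0.00 over all tested genes. In bulk RNA, fewer cells of a type and less RNA per cell cannot be told apart.

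**Figure D1:**
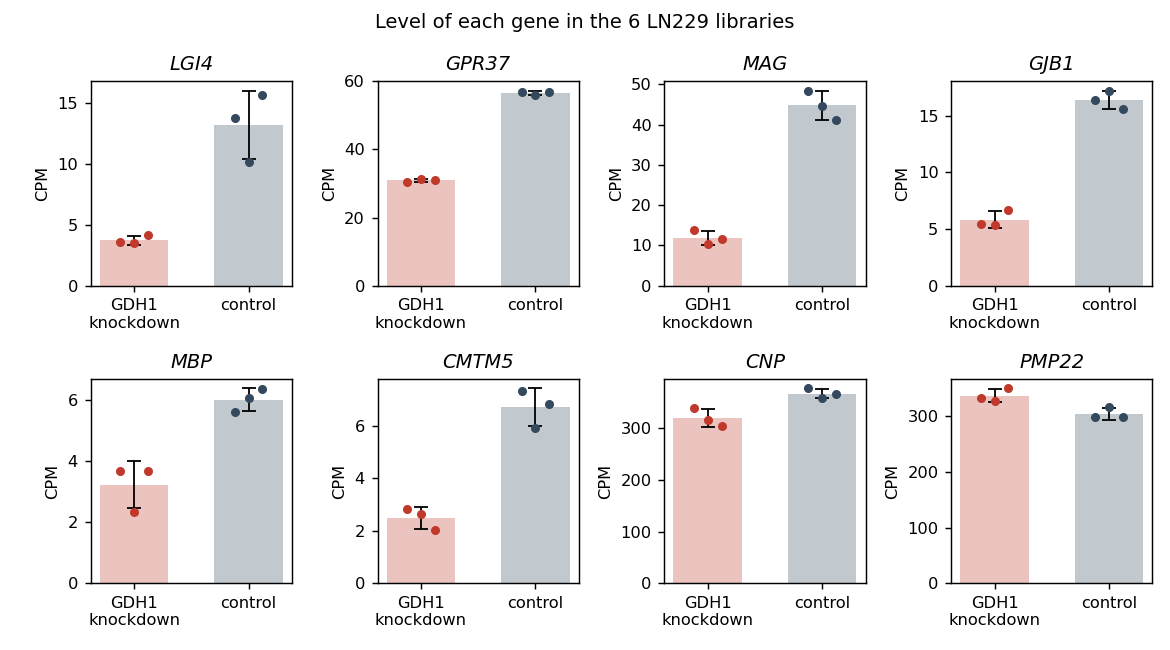
Level of each of the 8 genes in CPM (counts per 1000000 counts, scaled by TMM) in the 3 GDH1 knockdown and the 3 control libraries. Points are libraries, bars are group means from 0 and error bars are SD. The 3 knockdown points of MAG lie between 10.4 and 13.8 CPM and its control points between 41.2 and 48.4 CPM, while the groups of CNP and PMP22 differ little.

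LGI4 encodes a secreted protein that Schwann cells release and that binds the receptor ADAM22, and in mice it is needed for timely myelination of peripheral nerves. Its position is chromosome 19, 35124513 to 35135059, on the minus strand. LGI4 had 3.59, 3.49 and 4.18 CPM in knockdown replicates 1 to 3, against 13.8, 10.2 and 15.7 CPM in control replicates 1 to 3. The knockdown libraries were close to each other, the controls spread more widely, and the groups did not overlap. The means were 3.75 ± 0.371 and 13.2 ± 2.82 CPM in knockdown and control (n = 3 each), and the log2 fold change was -1.82 (SE 0.18), the 50th lowest of all tested genes. ADAM22 was at 18.1 ± 1.39 CPM in the knockdown and 22.3 ± 0.623 CPM in controls (log2 fold change -0.30). ADAM22 passed with all 6 libraries, and of the fits with 1 library left out it passed in that without knockdown replicate 3 alone (adjusted p 0.068 to 0.15 in the rest, edgeR). Of the other family members, LGI3 had 0.940 ± 0.168 CPM in the knockdown and 2.50 ± 0.514 CPM in controls and fell by 1.40 on the log2 scale, while LGI1 and LGI2 were too low to test.

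GPR37, on chromosome 7 (124743885 to 124765792), encodes a G protein-coupled receptor found in oligodendrocytes, which holds back their differentiation in mice. The gene had 30.5, 31.3 and 31.1 CPM in the knockdown libraries, against 57.0, 55.9 and 56.9 CPM in the controls. The libraries of each group were very close to each other, and the groups did not overlap. The log2 fold change was -0.87 (SE 0.08), and with any 1 library left out it stayed between -0.88 and -0.85. PSAP, whose product prosaposin has been proposed as a ligand of GPR37, was at 1750 ± 108 CPM in the knockdown and 1780 ± 37.0 CPM in controls and did not pass (log2 fold change -0.02, SE 0.06). The related receptor gene GPR37L1 had 3 to 8 counts per library.

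MAG encodes the myelin-associated glycoprotein, a sialic acid-binding lectin of the siglec family at the innermost myelin membrane facing the axon. The gene is on chromosome 19 (35292161 to 35313807, plus strand). MAG had 13.8, 10.4 and 11.5 CPM in the knockdown libraries, against 48.4, 44.7 and 41.2 CPM in the controls. All 3 knockdown libraries lay far below all 3 controls, with knockdown replicate 1 the highest of its group. The means were 11.9 ± 1.7 CPM in the knockdown and 44.8 ± 3.6 CPM in controls, a level at 26.6% of the control (log2 fold change -1.91, SE 0.12, the 41st lowest of all tested genes). Among the other 3 siglec genes that could be tested, CD22, which lies beside MAG, fell by 0.94 on the log2 scale (SE 0.10), and CD33 (-0.05) and SIGLEC15 (-0.53) did not pass.

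GJB1 encodes connexin 32, the gap junction protein of the non-compact myelin of Schwann cells, whose mutation causes X-linked Charcot-Marie-Tooth neuropathy. The gene is on chromosome X (71215239 to 71225516, plus strand). GJB1 had 5.45, 5.34 and 6.72 CPM in the knockdown libraries, against 16.4, 17.2 and 15.6 CPM in the controls. Each group was narrow, and every knockdown library lay far below every control. The log2 fold change was -1.49 (SE 0.13), with 35.6% of the control level left. Other connexin genes went either way. GJA1, which encodes connexin 43, the main connexin of astrocytes, rose to 56.4 ± 3.87 CPM in the knockdown, against 25.2 ± 1.31 CPM in controls (log2 fold change 1.16, SE 0.09). GJC1, for connexin 45, rose by 0.34, and GJA5, for connexin 40, fell by 1.27 on the log2 scale.

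MBP encodes myelin basic protein, which joins the cytoplasmic faces of compact myelin, and the same gene gives golli transcripts from a start farther upstream, which counts per gene do not separate. MBP, on chromosome 18 (76978833 to 77133708, minus strand), had 3.67, 2.33 and 3.66 CPM in the knockdown libraries, against 5.59, 6.04 and 6.33 CPM in the controls. Knockdown replicate 2 was the lowest library, and the groups did not overlap. These values rest on 128, 78 and 128 counts in the knockdown and 193, 190 and 208 counts in controls, and reads of MBP-AS1, annotated inside MBP on the opposite strand, cannot be told apart from those of MBP. The log2 fold change was -0.89 (SE 0.20), and it ranged from -0.99 to -0.71 with 1 library left out.

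CMTM5, of the CKLF-like MARVEL family of tetraspan membrane proteins, is expressed in mature oligodendrocytes. CMTM5, on chromosome 14 (23376771 to 23379772, plus strand), had 2.84, 2.63 and 2.03 CPM in the knockdown libraries, against 7.33, 5.92 and 6.82 CPM in the controls. The groups did not overlap, and in CPM the controls spread over a wider range than the knockdown libraries. On the log2 scale the knockdown libraries spread more, at -1.69 to -1.21 relative to the control mean, against -0.17 to 0.14 in controls. These values come from 71 to 99 counts per knockdown library and 186 to 253 per control library, so counting error is larger here than for MAG. The log2 fold change was -1.42 (SE 0.19), with 37.4% of the control level left.

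CNP encodes 2',3'-cyclic nucleotide 3'-phosphodiesterase, which keeps cytoplasmic channels of myelin open, and it is also transcribed outside glia. CNP, on chromosome 17 (41966795 to 41977740, plus strand), had 339, 316 and 305 CPM in the knockdown libraries, against 377, 359 and 366 CPM in the controls. The groups did not overlap, but the gap between the highest knockdown library and the lowest control was narrower than the spread among the knockdown libraries. The log2 fold change was -0.20 (SE 0.07), and of the fits with 1 library left out only that without knockdown replicate 1 kept the call (adjusted p 0.094 to 0.17 in the rest, edgeR). With offsets for GC content and transcript length it was at -0.08 and did not pass (adjusted p = 0.0769). The last 1306 bases of CNP overlap DNAJC7 on the opposite strand, and the sources used here do not give the strand setting of the counting, so reads in that overlap cannot be told apart. DNAJC7 was higher by 0.31 on the log2 scale, a call lost without any 1 control (adjusted p 0.052 to 0.065).

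PMP22 encodes the peripheral myelin protein whose duplication causes Charcot-Marie-Tooth neuropathy and which fibroblasts and epithelia also make. PMP22, on chromosome 17 (15229779 to 15265326, minus strand), had 333, 328 and 350 CPM in the knockdown libraries, against 299, 317 and 298 CPM in the controls. All 3 knockdown libraries were above all 3 controls by a small margin. The log2 fold change was 0.15 (SE 0.06) and did not pass (adjusted p = 0.111), but without knockdown replicate 1 it was 0.16 and passed (adjusted p = 0.0482). PMP22 was the 1 gene of the 8 with a fold change above 0. Its relatives EMP1 (0.13), EMP2 (-0.06) and EMP3 (0.23) did not pass either.

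Per transcript length, in transcripts per 1000000 transcripts (TPM), the 8 genes covered a wide range. PMP22 was at 558 ± 31.5 TPM in the knockdown and 508 ± 23.6 TPM in controls, and CNP followed at 189 ± 4.35 TPM in the knockdown and 218 ± 5.04 TPM in controls. In controls MAG (52.1 to 61.9 TPM) and GPR37 (57.7 to 58.5 TPM) overlapped, then came GJB1 (25.1 to 28.4 TPM), and CMTM5 (15.5 to 19 TPM) overlapped LGI4 (11.0 to 16.7 TPM). MBP was last, at 1.01 ± 0.237 TPM in the knockdown and 1.90 ± 0.111 TPM in controls. In the knockdown GPR37 (30.0 to 32.5 TPM) stood above MAG (13.4 to 16.9 TPM), and no neighbours in the order overlapped. The 2 most abundant genes were thus the 2 that differed least. The lengths are those of the longest coding transcript in GENCODE (9797 bases for MBP), so a gene mainly transcribed in a shorter form has its level understated.

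**Figure D2:**
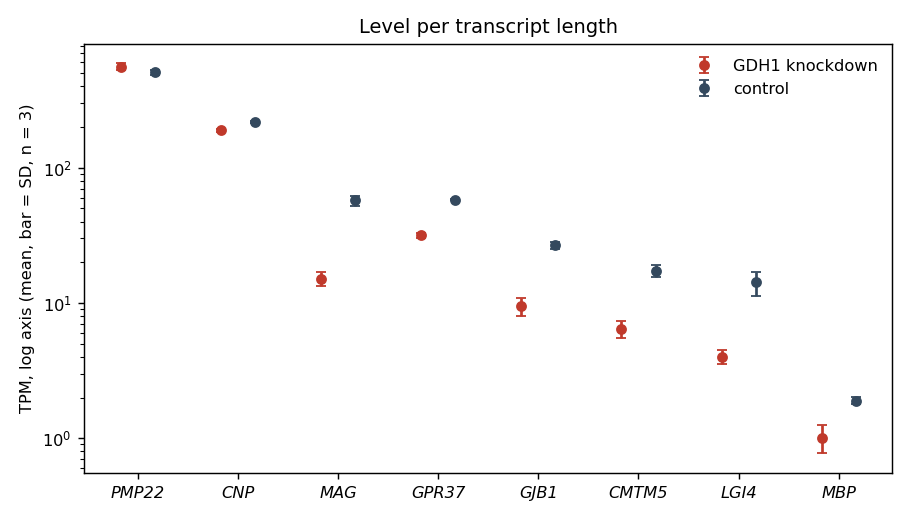
Level per transcript length of the 8 genes in TPM on a log axis, GDH1 knockdown left of control within each gene. Points are means of 3 libraries and bars are SD. PMP22 and CNP stand at 189 TPM or more in both groups, and MAG is level with GPR37 in controls and below it in the knockdown.

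Summed over all 8 genes, the libraries held 732, 699 and 714 CPM in the knockdown and 824, 816 and 806 CPM in controls. CNP and PMP22, the 2 genes that differed least, made up most of these sums. Without them the sums were 59.8, 55.6 and 59.2 CPM in the knockdown and 149, 140 and 143 CPM in controls. Relative to the mean of the controls, log2 CPM of MAG was -1.69, -2.09 and -1.95 in knockdown replicates 1 to 3, that of CMTM5 was -1.21, -1.32 and -1.69, and that of GJB1 was -1.58, -1.61 and -1.28. No knockdown library was the lowest for every gene. Across the 6 libraries, Pearson's correlation of log2 CPM with MAG was 0.924 to 0.987 for the 6 other genes that were lower and -0.861 for PMP22. The 5 named genes most like MAG were SEMA5A, which encodes an axon guidance protein, TMEM229B, the Wnt receptor gene FZD7, and the zinc finger genes OSR1 and ZNF785, with correlations of 0.9984 to 0.9995 over 6 libraries. These correlations are a description: the 6 points share 2 groups, so any gene with a clear difference between them scores high. SEMA5A had 31.5 ± 1.93 CPM in the knockdown and 63.1 ± 3.53 CPM in controls.

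The wider set of genes of myelin, its regulators, signals and lipids, and of the protein families of the 8, went both ways. Without the 8 genes, 122 of 166 genes on 8 lists could be tested: 28 fell (23.0%, beside 13.1% of all tested genes), 26 rose (21.3%, beside 13.0%) and the median log2 fold change was -0.02. With 1 library left out the number that rose was as low as 14 (control replicate 1), 16 (control replicate 3) and 17 (knockdown replicate 2). The counts of each list below likewise stand beside 13.1% of all tested genes lower and 13.0% higher.

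Of 21 other genes of myelin structure, 4 fell, 5 rose and 12 did not pass. ANLN, which encodes anillin, a septin-binding protein also needed in cell division, rose to 564 ± 33.2 CPM in the knockdown, against 379 ± 16.5 CPM in controls (log2 fold change 0.57). The list's number higher was 3 without control replicate 1, and its number lower was 7 with offsets for GC content and length.

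Of 26 regulators of myelinating glia, 7 fell, 5 rose and 14 did not pass. SOX8, a relative of SOX10 in the oligodendrocyte lineage, had 3.37 ± 0.857 CPM in the knockdown and 18.1 ± 0.924 CPM in controls (log2 fold change -2.43, SE 0.17). ID4, an inhibitor of oligodendrocyte differentiation, fell by 0.59 on the log2 scale, while SOX2 and SOX6, factors of progenitor cells, rose by 0.78 and 0.52. SOX10 fell by 0.38, but it lost its call without control replicate 1 (adjusted p = 0.053, edgeR) or knockdown replicate 2 (0.052), and with offsets for GC content and length it was at -0.06 and did not pass. EGR2, a factor of peripheral myelination, and MYRF, of central myelination, were at -0.33 and -0.30 and did not pass. With 1 library left out the list's number lower was 3 (control replicate 1), 4 (control replicate 3), 11 (knockdown replicate 1) and 3 (knockdown replicate 2).

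Of 27 other genes of axon-glia signalling, 10 fell, 5 rose and 12 did not pass. PDGFA, which encodes a growth factor for oligodendrocyte progenitors, had 71.6 ± 5.8 CPM in the knockdown and 137 ± 5.26 CPM in controls (log2 fold change -0.93, SE 0.08). JAG1, a Notch ligand gene, rose to 97.7 ± 7.54 CPM in the knockdown, against 49.8 ± 2.15 CPM in controls (0.97). ERBB3, the receptor gene for neuregulin 1 in Schwann cells, had 369 ± 10.8 CPM in the knockdown and 531 ± 1.3 CPM in controls (-0.52). NRG1, the neuregulin gene, also chosen after its value was seen, rose by 1.40 on the log2 scale. The number higher was 3 when control replicate 1, control replicate 3, knockdown replicate 2 or knockdown replicate 3 was left out, and 9 with offsets for GC content and length.

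Enzymes of myelin lipids went both ways, beside 13.1% of all tested genes lower and 13.0% higher. Of 22 tested, 3 fell, 6 rose and 13 did not pass. ARSA, which degrades sulfatide, fell by 0.71 on the log2 scale (-0.32 with offsets for GC content and length) and the fatty acid elongase gene ELOVL6 by 0.47. SGMS2, a sphingomyelin synthase gene, and AGPS, an enzyme gene of ether lipids, rose by 0.87 and 0.42. UGT8, which makes galactocerebroside, was at 0.06 and did not pass. The number higher was 2 when any 1 control or knockdown replicate 2 was left out, 3 when knockdown replicate 3 was, and the number lower was 6 with the offsets.

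Among 10 relatives of CMTM5 in the CMTM and MAL families, 3 fell and 7 did not pass. MARVELD1 fell by 0.43 on the log2 scale (-0.19 with offsets for GC content and length) and CMTM3 by 0.34 (-0.19). PLLP, which encodes plasmolipin, a myelin protein, fell by 0.89 to 1.17 ± 0.384 CPM in the knockdown, against 2.18 ± 0.408 CPM in controls, a call that was kept in 1 of the 6 fits with a library left out, that without knockdown replicate 1 (adjusted p 0.061 to 0.16 in the rest, edgeR). CMTM3 lost its call too without control replicate 1 or 3 (0.072 and 0.06), so that 1 gene was lower there, and without knockdown replicate 1 a gene of the list rose (1 of 10). Of 6 relatives of PMP22, PERP, a desmosome gene, and TMEM47 rose by 0.35 and 0.36 and 4 did not pass. PERP lost its call without control replicate 1 (adjusted p = 0.061, edgeR), and TMEM47 without control replicate 1 or 3 or knockdown replicate 2 (0.059 to 0.094), so that the number higher was 0 without control replicate 1, and 1 without control replicate 3 or knockdown replicate 2. Of 10 connexin and pannexin genes other than GJB1, 3 rose, 1 fell and 6 did not pass, and 2 fell without knockdown replicate 1.

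**Figure D3:**
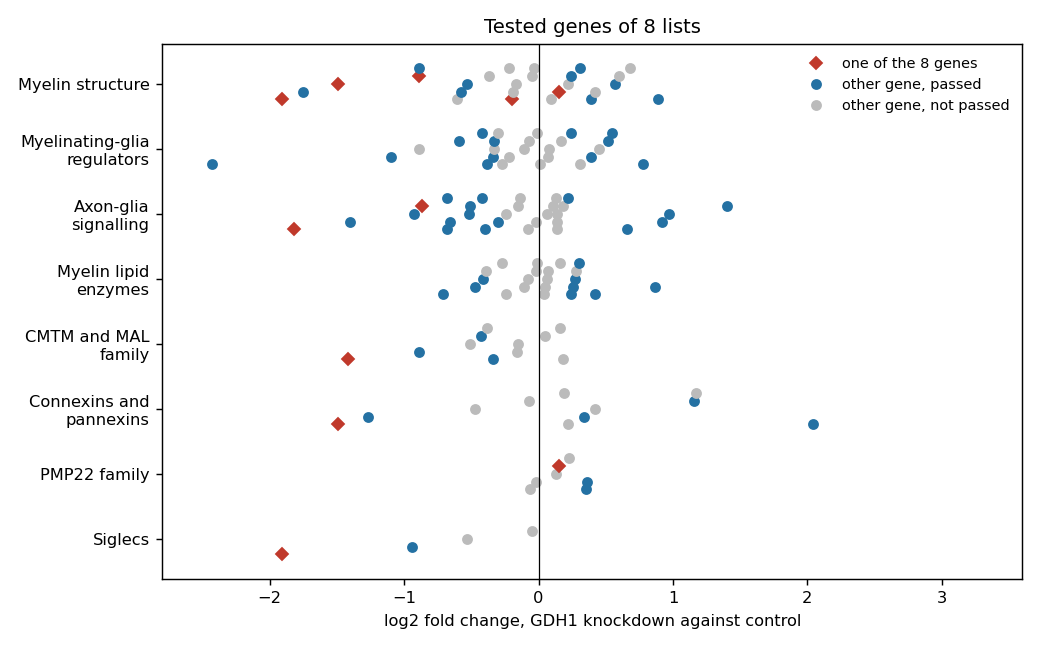
Log2 fold changes of the tested genes of 8 lists, GDH1 knockdown against control, 1 point a gene. Diamonds are the 8 genes described here, blue points are other genes that passed an adjusted p of 0.05 and grey points are those that did not. Most other genes lie between -1 and 1, with SOX8 at -2.43 among the exceptions.

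LGI4 and MAG lie close together on chromosome 19, 157 kb apart, and the genes around them were lower too. Of 18 annotated genes from the third neighbour before LGI4 to the third after MAG (chromosome 19, 35090948 to 35353864, GRCh38.p14, 263 kb), a stretch chosen after its values were seen, 11 could be tested. Of the 9 other than LGI4 and MAG, 8 were lower and 1, FXYD5, did not pass, where 17.7% of 960 tested coding genes of chromosome 19 and 13.1% of all tested genes were lower. FXYD3, which encodes a regulator of the sodium pump and is the nearest tested neighbour of LGI4, had 31.9 ± 2.73 CPM in the knockdown and 78.3 ± 1.74 CPM in controls (log2 fold change -1.29, SE 0.09). Its relatives FXYD1 (-1.58) and FXYD7 (-2.74) were lower too, at 2.33 and 2.35 CPM in controls, and FXYD5 was at 158 ± 13.2 CPM in the knockdown and 151 ± 4.17 CPM in controls (0.06). CD22, the siglec gene next to MAG and otherwise known from B cells, had 26.6 ± 2.32 CPM in the knockdown and 51.0 ± 3.67 CPM in controls (-0.94, SE 0.10). USF2, a transcription factor gene, was at -0.47, the lipoprotein receptor gene LSR at -1.09, the fatty acid receptor gene FFAR1 at -1.34 and an uncharacterised locus at -1.92.

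With offsets for GC content and length the same stretch still had 8 of 9 genes lower, with USF2 at -0.19, LSR at -0.72 and FXYD5 at 0.32, where FXYD5 passed as higher. The uncharacterised locus among the 8 had no transcript length or GC content to use. The offsets therefore did not act on it, and it was at -1.92 in both fits. FFAR1, at 0.494 ± 0.116 CPM in the knockdown and 1.26 ± 0.534 CPM in controls, was not called (adjusted p 0.095 to 0.16, edgeR) when control replicate 1, control replicate 2, knockdown replicate 2 or knockdown replicate 3 was left out, and 7 genes were then lower. The transcripts of MAG and LGI4 have a GC content of 63.5% and 63.2%, and with the offsets they were at -1.59 and -1.48, both lower. Around the other 6 genes the 3 annotated neighbours on each side showed no common direction. Beside CNP, NKIRAS2 was lower (-0.34, a call lost without any 1 control or knockdown replicate 2, and -0.17 with the offsets). Beside CMTM5, SLC22A17 was lower (-0.78, and -0.45 with the offsets), and MYH7, at 0.426 ± 0.0855 CPM in the knockdown and 0.0386 ± 0.0669 CPM in controls, was higher, a call lost without control replicate 2 or 3 or knockdown replicate 2. Beside GPR37, POT1, a telomere gene, was higher by 0.42. The 3 tested neighbours of GJB1 did not pass, and MBP and PMP22 had no tested neighbour.

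**Figure D4:**
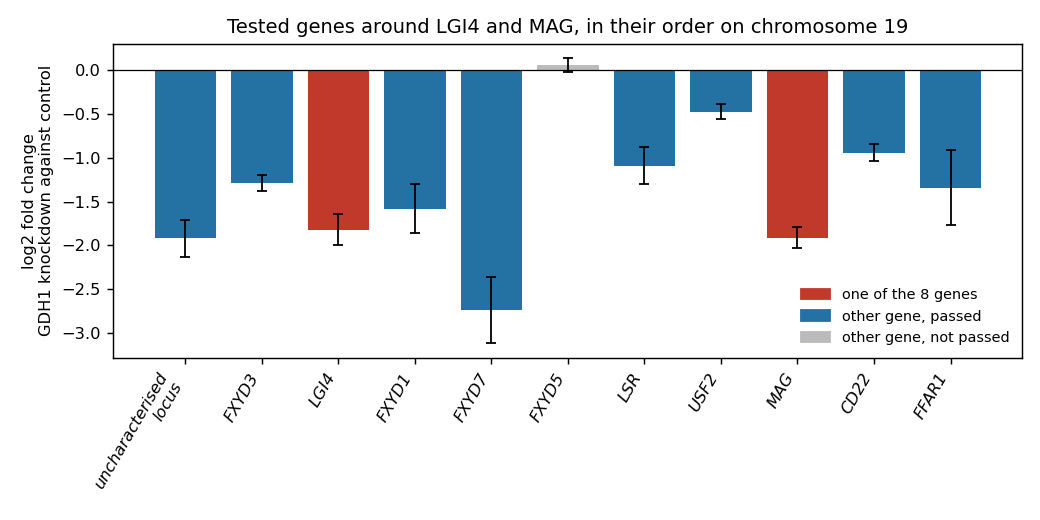
Log2 fold changes (GDH1 knockdown against control) of the 11 tested genes around LGI4 and MAG, in their order along chromosome 19. Bars are fold changes and error bars are SE. LGI4 (-1.82) and MAG (-1.91) are red, 8 blue genes were also lower, and FXYD5 (0.06, grey) did not pass.

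The marker lists of cell types did not share a direction, and their part in the results was not tested. Beside the counts below, 13.1% of all tested genes were lower and 13.0% higher. With 1 library left out, 1053 to 3258 of all tested genes were lower. All 5 tested markers of oligodendrocyte progenitors (of 9) were lower, 4 to 6 with 1 library left out, and LHFPL3 was at 0. The summed level of this list was 1820 to 1880 CPM in the knockdown and 2340 to 2570 CPM in controls. Most of it was VCAN (1010 and 1180 CPM in knockdown and control) and CSPG4 (658 and 965 CPM). VCAN (log2 fold change -0.24) did not pass in 3 of the 6 fits with a library left out (adjusted p 0.092 to 0.14, edgeR). CSPG4, PDGFRA, OLIG2 and PTPRZ1 passed in all 6. Of 7 tested markers of mature oligodendrocytes (of 10), 2 were lower, 1 without control replicate 1 or knockdown replicate 2, and the sums were 1190 to 1330 CPM in the knockdown and 1600 to 1660 CPM in controls. Of 6 tested markers of myelinating Schwann cells (of 7), 3 were lower, 1 without control replicate 1 or knockdown replicate 2 and 5 without knockdown replicate 1. SOX10, on both of the last lists, makes up most of these sums. Those of the Schwann cell list were 795 to 1020 CPM in the knockdown and 1100 to 1220 CPM in controls, and NCMAP was at 0. Of 5 tested markers of non-myelinating Schwann cells (of 6), 3 were higher, NGFR (0.92), L1CAM (0.77) and NCAM1 (0.39), and 1, S100B, lower (-1.13). With 1 library left out, 2 to 4 were higher. NGFR was at 325 CPM in the knockdown and 172 CPM in controls, and S100B at 197 and 430 CPM. The sums of this list were 835 to 893 CPM in the knockdown and 872 to 904 CPM in controls. Of 7 tested neuron markers (of 8), 3 were lower, 1 without control replicate 1 or 3 or knockdown replicate 2, with sums of 128 to 154 CPM in the knockdown and 204 to 215 CPM in controls and STMN2 at 0. Leukocyte markers summed to 27.7 to 29.4 CPM in the knockdown and 14.2 to 17.5 CPM in controls, nearly all of it CD68 (0.88, a rise), with AIF1 at 0. Of 5 tested astrocyte markers (of 8), GJA1 was higher and S100B lower, with sums of 252 to 267 CPM in the knockdown and 444 to 474 CPM in controls. S100B made up most of these sums, and the median log2 fold change of the tested astrocyte markers was 0.31. Of 5 tested fibroblast markers (of 6), 3 were lower, 1 without control replicate 2 or 3 or knockdown replicate 2, with sums of 44.3 to 52.3 CPM in the knockdown and 60.9 to 69.5 CPM in controls. Melanocyte markers summed to 49.3 to 60.8 CPM in the knockdown and 52.5 to 53.2 CPM in controls, with TYR at 0. Endothelial markers summed to 2.55 to 2.84 CPM in the knockdown and 2.32 to 3.29 CPM in controls, with CDH5 at 0. Epithelial markers summed to 1.66 to 2.27 CPM in the knockdown and 1.22 to 1.59 CPM in controls, with CDH1 and KRT5 at 0. No tested marker of the melanocyte, endothelial or epithelial lists passed with all 6 libraries.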

How the data were processed

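RNA of 6 LN229 cultures was sequenced, 3 after GDH1 knockdown and 3 controls. The deposited table held raw counts per gene row, whole numbers in every cell. The genome build, per the submitters' processing notes, was GRCh38.p14; the sources used here name no aligner, counter or strand setting. Groups came from genotype labels and replicate numbers from titles. Counts of the 28196 rows were summed by symbol (24976 symbols, 1634 with several rows, none of them among the 8 genes); 4956 were newly assembled loci without a name, 1.20 to 1.30% of counts in the knockdown and 1.23% in controls. Genes passing filterByExpr (15638) were TMM-scaled (trimmed means of M values) and tested with edgeR 4.0.16 in R 4.3.3 (robust glmQLFit, glmQLFTest, two-sided, Benjamini-Hochberg over all tested genes, threshold 0.05). SE is the log2 fold change over the square root of F, and a prior count of 2 went into log2 CPM. The p-values of edgeR set the difference between groups against the spread among 3 cultures per group, all of the same cell line. That spread was pooled over both groups and moderated across genes. Precision follows from 31201100 to 35619614 counts per library. TPM used the longest GENCODE coding transcript. Promoter sequences and positions are RefSeq's, GRCh38.p14.

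The 8 genes and all lists were chosen with earlier results of these data known. Named genes were the 8, GLUD1, up to 4 called genes per list (those of lowest p), or else its most abundant gene, the 5 genes most like MAG, and called neighbours. Genes named outside this rule (ADAM22, LGI3, PSAP, CD33, SIGLEC15, EMP1 to EMP3, ERBB3, NRG1, SOX10, EGR2, MYRF, OLIG2, UGT8, LSR, FXYD5 and the markers) were chosen after their values were seen. Alternatives were other scalings and filters, DESeq2 1.42.0, limma-voom (limma 3.58.1), the replicate number as a block, the highest row per symbol, each library left out, an adjusted p of 0.01, and loess offsets for GC content and transcript length (span 0.5, covering 82.9% of tested genes). Some genes that the rule names are not reported here.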

Additional observations from a re-analysis of the deposited data

How the results depend on the processing

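Of the 8 genes, MAG, LGI4, GJB1, CMTM5, MBP and GPR37 kept their direction and call under all 16 other fits, MAG between -2.02 and -1.59 and LGI4 between -1.97 and -1.48, and CNP did not. CNP was also not called with no filter on low counts (adjusted p = 0.0529, edgeR) or with the replicate block added to the offsets (0.11). The number of the 8 called lower ranged from 6 to 7 and the number called higher from 0 to 1 with 1 library left out. GLUD1 ranged from -1.88 to -1.71. Across all genes 1053 to 3258 were lower and 1161 to 2978 higher with 1 library left out. An adjusted p of 0.01 left 977 lower and 1013 higher, and GC and length offsets gave 3135 higher, or 3150 with the replicate block. The cause of these shifts was not tested.

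With 1 library left out, and without the 8 genes, lists had 3 to 5 lower and 3 to 5 higher for myelin structure, 3 to 11 lower for regulators, 3 to 5 higher for signalling, 2 to 6 higher for lipid enzymes, 1 to 4 lower and 0 to 1 higher for the CMTM and MAL families, 1 to 2 lower for connexins, 0 to 3 higher for relatives of PMP22 and 14 to 27 higher over all lists. At an adjusted p of 0.01 there were 3 higher for myelin structure, 4 lower for regulators, 3 higher for signalling, 2 higher for lipid enzymes, 1 lower for the CMTM and MAL families, 0 higher for relatives of PMP22 and 14 higher over all lists. The offsets gave, with or without the block, 7 lower for myelin structure, 6 lower for lipid enzymes, 1 higher for the CMTM and MAL families and 1 lower for relatives of PMP22, and 9 higher for signalling without it. The chromosome 19 count was 7 or 8 under all of these.

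Same-numbered libraries correlated at 0.395, 0.113 and -0.111 in their deviations from group means, and differently numbered ones at -0.504 to 0.491. With 3 libraries per group these values cannot tell whether the numbers pair the samples. With the replicate block 7 of the 8 genes were lower, as without it. Across all genes 2522 were lower and 2269 higher with the block, against 2048 and 2037 without it. Depth limits the precision of CMTM5, with 71 to 99 counts per knockdown library, and of MBP, with 78 to 128.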
